A study of Mus musculus with 2 samples.

Results

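Collagens are the rope-like proteins that give skin its strength and tie the epidermis to the dermis. Their chains share a repeat in which glycine returns at a fixed interval, and this lets the chains of one molecule wind around each other. The expression of 43 collagen genes was compared between SOX11-induced and control mouse epidermis, out of 34820 gene names tested on the arrays. A gene was included if its name on the array was Col, a type number, a and a chain number, and 67 probes, each 60 bases long, carried these names. A single probe stood for 26 of the genes, and the other 17 had up to 4 probes. All 43 names were found in the RefSeq gene table, which holds 44 such genes. The remaining gene, Col26a1, stood on the array under its older name Emid2 with 2 probes, neither of which was above background in any pup, and it was not counted.

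Each of the 2 arrays held 1 littermate pair, matched for sex per the study's methods. The control pup carried K14-rtTA alone, and its SOX11 littermate carried K14-rtTA;TRE-Sox11-FLAG. Both received doxycycline (Dox) for 12 h, and both were FVB/N pups aged P4.5, so that every group shared the K14-rtTA transgene and the drug. The K14 promoter drives the transgene in keratin 14 positive keratinocytes, so any other cell in an epidermal sheet was not itself a target of the induction. Control RNA was labelled with Cy3 and SOX11 RNA with Cy5 on both arrays, and a log2 ratio above 0 means a brighter signal in the SOX11 pup. With the same dye orientation on both arrays, an effect of the dye on a probe and an effect of SOX11 cannot be told apart. In such bulk RNA, fewer cells of a type and less RNA per cell cannot be told apart either. Neither of the 2 probes named Sox11 was above background in any pup. The transgene carries the Sox11 open reading frame with a FLAG tag, per the study's methods. Whether these probes read within that frame was not determined, since no mm9 annotation was used here, so they do not check the labels.

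Collagens fall into groups by structure. Fibrillar collagens (types I, III and V among them) build the cables of the dermis. Basement membrane collagens form the sheet under the epidermis (type IV) or the anchoring fibrils that hold that sheet to the dermis (type VII). FACIT collagens, with type XVI among them, decorate other fibrils or sit next to the basement membrane. Transmembrane collagens span the cell membrane, and type XVII is the collagen of the hemidesmosome, the rivet by which basal keratinocytes hold on to the basement membrane.

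The repeat is visible in the probes themselves. In 6 of the 67 probes an open reading frame held at least 3 glycine codons in a row at the spacing of the repeat. One probe each of a FACIT, a transmembrane and a basement membrane collagen is shown here, 5′ to 3′, with those glycine codons in capitals. The positions on mouse genome build mm9 are chr4:129756457-129756516 (plus strand), chr3:130270497-130270556 (plus strand) and chr1:82515563-82515622 (minus strand).
Col16a1: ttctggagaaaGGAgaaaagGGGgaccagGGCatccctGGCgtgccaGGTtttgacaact
Col25a1: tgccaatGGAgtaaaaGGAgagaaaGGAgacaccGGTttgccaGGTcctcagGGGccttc
Col4a4: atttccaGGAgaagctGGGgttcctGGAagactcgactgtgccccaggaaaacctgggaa
The run is 5 glycine codons long in Col16a1 and 6 in Col25a1. In Col4a4 it breaks off after 3, and interruptions of the repeat are a known feature of the type IV chains. Of these 3 probes, that of Col16a1 was above background in both control pups, and the other 2 in no pup. The 2 Col16a1 probes that were above background in all 4 pups lie furthest along the gene among its 4 probes in the direction of its strand. Both hold AATAAA, the usual polyadenylation signal, which 9 of the 67 probes contain. Col7a1 holds the variant ATTAAA, which 1 probe contains. The 30 bases around each hexamer are given with the hexamer in capitals. The hexamer and the order of the probes are the grounds on which the 2 Col16a1 probes are called end probes, and they were not assigned to an exon or UTR.
Col16a1, inner probe: gactctactaggAATAAAtggccaaagctt
Col16a1, outer probe: ttttttaacAATAAAgaaaactatttgtaa
Col7a1: aggggacggggcATTAAAgctgctgtttta
The whole probes lie at chr4:129776333-129776392, chr4:129776460-129776519 and chr9:108886861-108886920 on mm9, all on the plus strand. The inner and outer Col16a1 probes start 127 bases apart and share no base.

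Col16a1 and Col17a1 fell in SOX11-induced epidermis, and Col5a2 rose. These were the collagens above background that passed an adjusted p under 0.05 in limma's moderated test over all 55676 probes. On that scale 2 collagen probes were higher and 3 lower, where the whole array had 2.99% of probes higher and 1.41% lower. The 2 collagen probes that were higher are 2.99% of 67, the same share as the array, and the 3 that were lower are 4.48%, with 2 of them from Col16a1. Past a mean log2 ratio of 1.5, 1 collagen probe was higher (Col5a2) and 1 lower (Col16a1), against 0.366% and 0.0862% of all probes. The median log2 ratio was -0.06 over the collagen probes and 0.01 over all probes. With 2 arrays, an exact sign-flip test of a single probe cannot go below p = 0.5, so these calls rest on limma's pooled estimate of the spread. With the processed signals of the scanner software in place of normexp and loess, no probe of the array passed the adjusted threshold, while 9764 had an unadjusted p under 0.05.

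**Figure D1:**
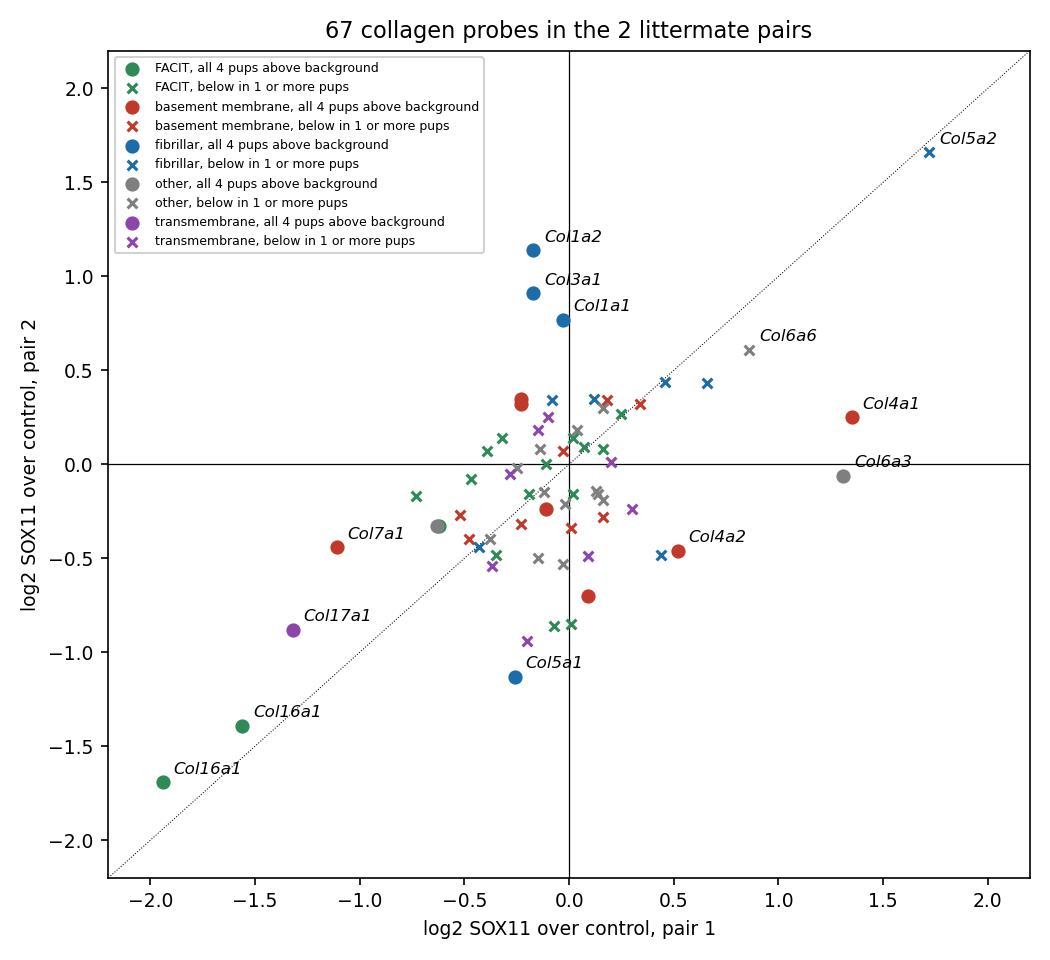
The log2 ratio of SOX11 over control in pair 1 (x axis) and pair 2 (y axis) for each of the 67 collagen probes, coloured by structural group. Filled circles were above background in all 4 pups and crosses were not, and the dotted line marks equal values. Col16a1, Col17a1 and Col7a1 lie at the lower left in both pairs, Col5a2 at the upper right, while Col4a1 and Col6a3 lie far to the right in pair 1 alone and Col1a1, Col1a2 and Col3a1 high in pair 2 alone.

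A probe counted as above background in a pup when the scanner software called at least 0.5 of its spots well above it. By that rule 17 probes of 15 genes were above background in all 4 pups, 8 probes in some pups and 42 probes in none. No probe was above background in any pup for 23 of the 43 genes (53.5%), near the 48.7% of all gene names, and the probes above background in no pup were 62.7% of the collagen probes and 56.7% of all. The 42 probes above background in no pup had mean log2 ratios from -0.57 to 0.74, and no fold change is given for them. Col6a6, a chain of the microfibril-forming type VI, was among these: its probe at chr9:105676597-105676655 passed the test with log2 ratios of 0.86 and 0.61 (adjusted p = 0.0303, limma), but was not well above background in any pup. Its other probe, also not above background, read 0.04 and 0.18.

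Among the FACIT collagens, Col16a1 had the largest fall of any collagen probe. Its inner probe had a log2 brightness of 12.23 in the control and 10.29 in the SOX11 pup of pair 1, and of 12.37 and 10.69 in pair 2. Both SOX11 pups were thus dimmer than both controls, and the groups did not overlap. With 2 pups per genotype such a separation is a weak description, here and for the genes below. Its share over all probes of the array was not counted. The log2 ratio was -1.94 and -1.69, a mean of -1.81 (SD 0.183, n = 2 pairs), which is 3.52-fold lower with a 95% interval of the log2 ratio from -2.16 to -1.47 (adjusted p = 0.00034, limma). The outer probe read 8.79 and 7.23 in pair 1 and 8.69 and 7.29 in pair 2. It too separated the SOX11 pups from the controls, with log2 ratios of -1.56 and -1.39 and a mean of -1.47, 2.78-fold lower (95% interval -1.82 to -1.13, adjusted p = 0.000892, limma).

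The other 2 Col16a1 probes lie earlier along the gene. The probe in the glycine repeat shown above, 19876 genomic bases before the inner probe, was above background in both controls and in 1 SOX11 pup. Its log2 brightness was 5.88 and 5.53 in pair 1 and 6.09 and 5.61 in pair 2. It was dimmer in both SOX11 pups, but its log2 ratios of -0.35 and -0.48 did not pass the test (mean -0.41, 95% interval -0.75 to -0.07, adjusted p = 0.159, limma). The probe at chr4:129770686-129770745 was not above background in any pup and read 0.07 and 0.09. The intervals of the 2 end probes and of the probe in the repeat did not overlap. But the probe in the repeat was near background, and its distance from the end probes depended on the processing. With the processed signals it read -1.04, against -1.82 and -1.71 at the end probes. With an offset of 50 it read -0.26, against -1.77 and -1.28. The difference between them was not tested.

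Of the other FACIT genes, Col12a1 alone had a probe above background in all 4 pups, and it is named here after its values were seen. Its log2 ratios were -0.62 and -0.33 (adjusted p = 0.126, limma). Col14a1 and Col20a1 were above background in some pups and did not pass the test. No probe of Col9a1, Col9a2, Col9a3, Col19a1 or Col22a1 was above background in any pup. Over all 17 FACIT probes 8 were lower in both pairs, 4 were higher in both and 5 had opposite signs in the pairs, with a median log2 ratio of -0.18. Of these 17 probes 10 were above background in no pup and 4 were of Col16a1. Over the 55676 probes of the array 17699 were lower in both pairs, 18578 higher and 19399 of opposite sign.

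Col17a1 was the only transmembrane collagen with a probe above background. Its single probe lies at chr19:47720894-47720953 on the minus strand. The log2 brightness was 11.31 in the control and 9.99 in the SOX11 pup of pair 1, and 11.11 and 10.23 in pair 2. The 2 genotypes did not overlap. The log2 ratios of -1.32 and -0.88 gave a mean of -1.10 (SD 0.311, n = 2 pairs), or 2.15-fold lower, with a 95% interval from -1.47 to -0.73 (adjusted p = 0.00669, limma). This value depends on how the arrays were centred: with the median of each array in place of loess it was -0.47 (adjusted p = 0.0615). Krt15, a keratin of basal cells and the hair follicle, also fell, with log2 ratios of -1.08 and -0.98 (adjusted p = 0.00573, limma), while the other keratins of the list did not pass the test. Of the basal layer, Krt5 read -0.25 and -0.62 at one probe and -0.30 and -0.65 at the other, and Krt14 read -0.13 and -0.50. Of the layers above it, Krt1 read 0.36 and 0.89, and Krt10 read 0.23 and 0.94 at one probe and 0.24 and 1.09 at the other. The basal keratins were thus lower and the suprabasal ones higher in both pairs. Trp63, the keratinocyte marker of the list that is not a keratin, differed between its probes. They read -0.18 and -0.28, -0.24 and -0.20, -0.03 and 0.18, and 0.56 and 0.50, and none passed. Whether a shift between basal and suprabasal cells took part in the Col17a1 result was not tested. The 8 probes of Col13a1, Col23a1 and Col25a1 were not above background in any pup, with mean log2 ratios between -0.57 and 0.11.

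**Figure D2:**
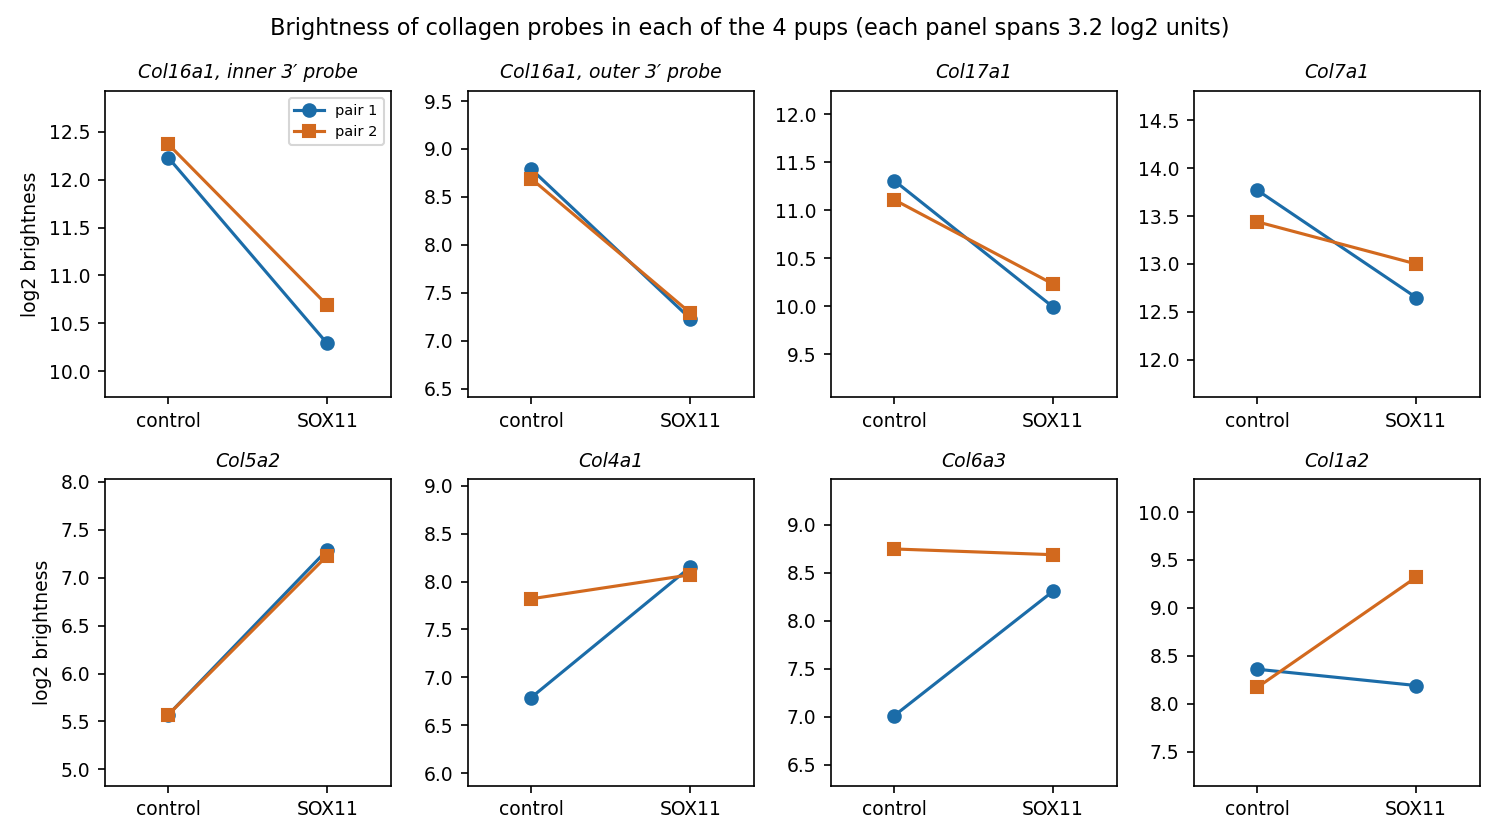
Log2 brightness of 8 collagen probes in each of the 4 pups, with a line joining the control and the SOX11 littermate of pair 1 (circles) and pair 2 (squares). Each panel has its own axis of the same length, and levels are not comparable between panels. The lines of Col16a1, Col17a1 and Col7a1 go down and those of Col5a2 go up in both pairs, while those of Col4a1 and Col6a3 slope up mainly in pair 1, from a control that was dimmer than the other control, and that of Col1a2 in pair 2.

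None of the 15 probes of the basement membrane group passed the test. Col7a1, the chain of the anchoring fibrils, came closest. Its log2 brightness was 13.77 and 12.65 in pair 1 and 13.44 and 13.00 in pair 2, so that the SOX11 pups were both below the controls. The log2 ratios of -1.11 and -0.44 gave a mean of -0.78 (95% interval -1.19 to -0.36), which lay just outside the threshold (adjusted p = 0.0502, limma). An offset of 50 brought it inside (adjusted p = 0.0243), and centring on the median left a log2 ratio of -0.06.

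The type IV chains, the main fabric of the basement membrane, differed between the pairs and did not pass the test. Col4a1 read 1.35 in pair 1 and 0.25 in pair 2, a mean of 0.80 (SD 0.781, adjusted p = 0.092, limma). This probe was printed as 10 spots on each array. The spots ranged from 1.03 to 1.53 in pair 1 and from 0.05 to 0.42 in pair 2, so the gap between pairs was larger than the spread between spots of an array. Col4a2, whose chain pairs with that of Col4a1, read 0.52 and -0.46. Col4a1 had a log2 brightness of 6.79 in the control and 8.15 in the SOX11 pup of pair 1, and of 7.82 and 8.07 in pair 2. Col4a2 read 7.37 and 7.89 in pair 1 and 8.22 and 7.76 in pair 2. For both genes the control of pair 1 was the dimmest of the 4 pups. Col4a5 and Col4a6 encode the other type IV chains of skin. Col4a5 read -0.23 and 0.32, and the Col4a6 probe at chrX:137599990-137600049 read -0.23 and 0.35. The other Col4a6 probe was above background in the SOX11 pups only and read 0.34 and 0.32 (adjusted p = 0.243, limma). Col18a1, which carries heparan sulphate chains in the basement membrane, read 0.09 and -0.70 at one probe and -0.11 and -0.24 at the other. The direction of both Col18a1 probes turned with centring on the median, to 0.31 (adjusted p = 0.226, limma) and 0.45 (adjusted p = 0.0481, limma). The second thus passed as higher under that setting. Centring on the median brought Col4a1 to 1.27 (adjusted p = 0.0018), Col4a5 to 0.54 (adjusted p = 0.0415) and the Col4a6 probes to 0.61 and 0.48 (adjusted p = 0.0273 and 0.0367), all past the threshold, and Col4a1 also passed without background correction (0.72, adjusted p = 0.0394). That centring called 33.2% of the array and left the probes above background at medians of 0.473 and 0.545 in the pairs. Col4a4 was above background at 1 of its 3 probes in some pups. Col4a3 and Col15a1 were not above background.

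**Figure D3:**
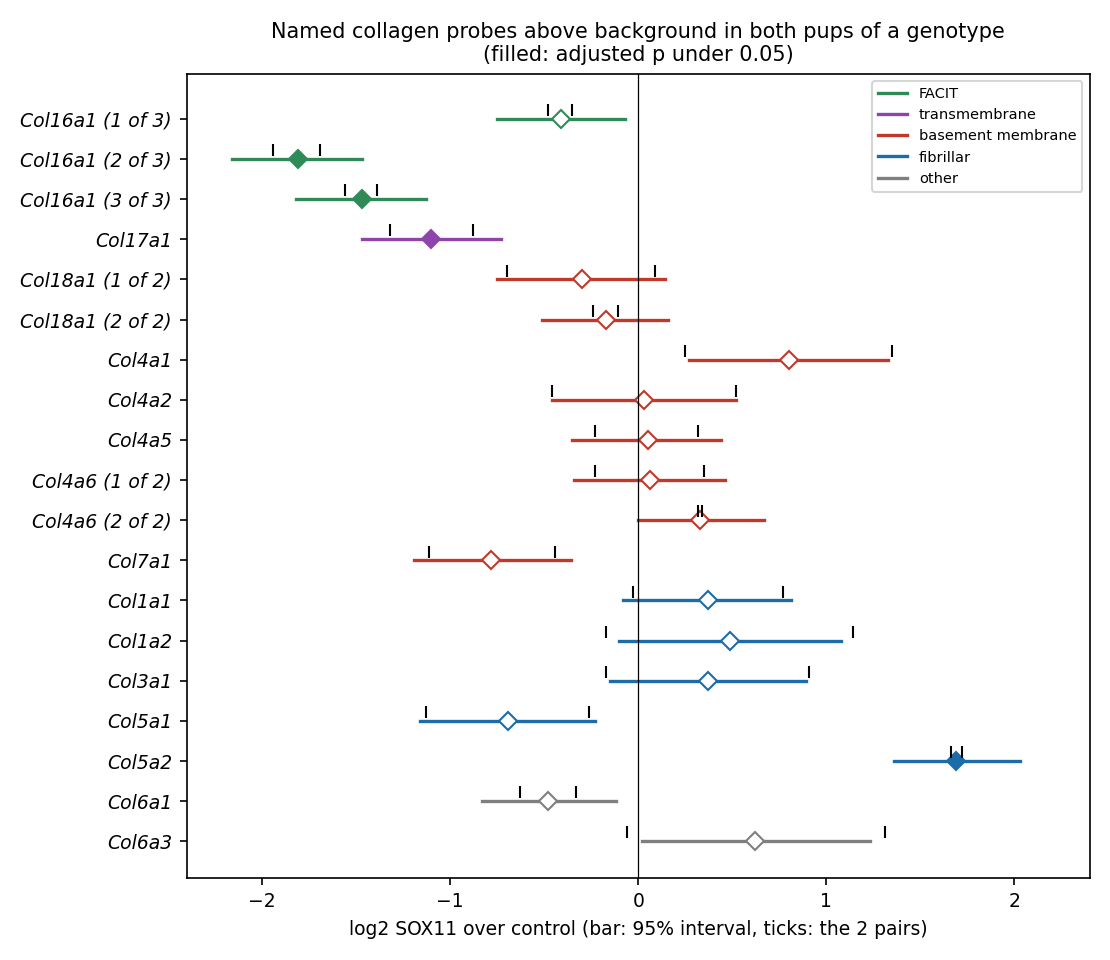
Mean log2 ratio of SOX11 over control (diamonds, filled where the adjusted p was under 0.05) with its 95% interval (bars) and the values of the 2 pairs (black ticks), for the named collagen probes above background in both pups of a genotype. Col16a1 at its 2 end probes, Col17a1 and Col5a2 are filled, and the intervals of the Col16a1 probe in the glycine repeat, Col7a1, Col4a1, Col5a1, Col6a1 and Col6a3 leave out 0 without an adjusted p under 0.05.

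Col5a2 was the single fibrillar collagen that passed the test. Type V collagen takes part in the start of type I fibrils. Its probe, at chr1:45431204-45431263 on the minus strand, had a log2 brightness of 5.57 in both controls and of 7.29 and 7.23 in the SOX11 pups. It was well above background in both SOX11 pups and in neither control. The log2 ratios were 1.72 and 1.66 (mean 1.69, SD 0.0438, n = 2 pairs, adjusted p = 0.000391, limma). That is 3.23-fold brighter in SOX11 epidermis, with a 95% interval of the log2 ratio from 1.36 to 2.03. Taking each control at the higher of its own signal and the dimmest signal called above background left the fold at 3.23. It is thus an estimate from controls not called above background and no lower bound. With an offset of 50 the mean log2 ratio was 1.15, and without background correction it was 1.32. Both were past the adjusted threshold but not past 1.5. Its partner Col5a1 went the other way, at -0.26 and -1.13, with a mean of -0.69 (95% interval -1.16 to -0.23, adjusted p = 0.0961, limma). The log2 brightness of Col5a1 was 6.76 and 6.50 in pair 1 and 7.45 and 6.32 in pair 2, and both SOX11 pups were below both controls. Col5a3 was not above background.

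Col1a1 and Col1a2, the chains of type I collagen, and Col3a1, that of type III, differed between the pairs. They read -0.03, -0.17 and -0.17 in pair 1 and 0.77, 1.14 and 0.91 in pair 2. None passed the test (adjusted p = 0.325, 0.322 and 0.392, limma), whereas with centring on the median their means were 0.80, 1.03 and 0.75 in place of 0.37, 0.49 and 0.37 and all 3 passed (adjusted p = 0.0144, 0.0136 and 0.0386). As given above, that centring shifted bright probes upward in general and called 33.2% of the array. Here the SOX11 pup of pair 2 stood apart: its Col1a2 log2 brightness was 9.32, against 8.36, 8.17 and 8.19 in the others. Over the 11 fibrillar probes the median was -0.03 for pair 1 and 0.43 for pair 2, both as log2 ratios. Of the type VI chains, Col6a3 read 1.31 and -0.06, from a control of 7.01 in pair 1 and of 8.75 in pair 2, with SOX11 pups at 8.31 and 8.69. Its mean of 0.62 did not pass (adjusted p = 0.227, limma), but was 1.14 with centring on the median (adjusted p = 0.00539). Col6a1 read -0.63 and -0.33 (mean -0.48, adjusted p = 0.125, limma), with both SOX11 pups below both controls. Neither Col6a2 probe was above background.

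Collagen types I, III, V and VI are mainly products of fibroblasts, and markers of other cells were therefore read beside them. Of 12 fibroblast markers, 5 were above background in all 4 pups, 1 (Mfap5) in 1 pup, and 6 in none (Dpt, Fbn1, Lum, Pdgfra, Pdgfrb and Twist2). The summed brightness of the list, with the brightest probe of each gene, was 27058 and 18189 in the controls and 21988 and 18386 in the SOX11 pups. In pair 2, where Col1a1, Col1a2 and Col3a1 were brighter in the SOX11 pup, this sum differed by a log2 ratio of 0.02. Sparc, a collagen-binding matrix protein, made up 83.2% to 87.1% of it in each pup, and the sum of the other 11 genes was lower in the SOX11 pup of both pairs (log2 ratios -0.35 and -0.36). Dcn, a proteoglycan bound to collagen fibrils, read -0.97 and -0.62 (adjusted p = 0.026, limma) and Thy1, a surface protein of fibroblasts and some leukocytes, -1.37 and -1.22 (adjusted p = 0.00179, limma), so both fell. The other markers above background in all 4 pups did not pass. Vim read 0.12 and 0.08, Fap 0.56 and 0.03, and Sparc -0.29 and 0.08 at its bright probe. Thy1 and Vim were the brightest of the 11 genes in both controls, so the lower sum rests in large part on Thy1.

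Col4a1, Col4a2 and Col6a3, higher in pair 1 and not or less so in pair 2, were read beside a fat cell marker. Fabp4, a fatty acid binding protein of adipocytes and capillaries, read 1.78 in pair 1 and -0.35 in pair 2, and its control of pair 1 lay 2.73 below that of pair 2 on the log2 scale. For Col6a3 this gap between controls was 1.75, for Col4a1 1.02 and for Col4a2 0.85. Over the 19095 probes above background in all 4 pups the median gap between controls was 0.194 and the 95th percentile 0.787. These collagens were picked for a higher ratio in pair 1, which contains that control, so their gaps are not independent of the choice. Adipoq and Plin1, also of adipocytes, were not above background. Of the 5 endothelial markers Cdh5, Cldn5 and Tek were not above background. The summed brightness of the list ranged from 795 to 809 in the controls and was 755 in both SOX11 pups. Of it, 77.2% to 82.2% came from the brighter Kdr probe. The other Kdr probe, printed as 10 spots, was not above background in any pup, so this sum rests largely on a single probe. The keratinocyte sum ranged from 341009 to 437697 in the controls and from 376732 to 427619 in the SOX11 pups. Over the 4 pups the muscle genes summed to between 119 and 142, the Schwann cell genes to between 194 and 218, the leukocyte genes to between 623 and 1933 and the pigment cell genes to between 7145 and 12504. The part of other cells in the collagen values was not tested.

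Sequence before the start of transcription was read for the 2 collagens that fell and for Col7a1. The 250 bases before the RefSeq start on build GRCm38.p6 were searched on both strands for short motifs, of which no 2 overlapped in the windows shown. SOX factors bind the letters AACAAT, present in 9.42% of all 32851 promoters of that length, and also the letters ACAAAG, present in 16.5%. The AP-1 motif TGANTCA occurs in 6.75%. The GC box was searched as GGGCGG, found in 32.7%, and the TATA box as TATAAA, found in 12.4%. The windows of the 2 collagens called lower are shown with the matches in capitals. They cover chr4:130047590-130047839 (plus strand) for Col16a1 and chr19:47692043-47692292 (minus strand) for Col17a1.
Col16a1: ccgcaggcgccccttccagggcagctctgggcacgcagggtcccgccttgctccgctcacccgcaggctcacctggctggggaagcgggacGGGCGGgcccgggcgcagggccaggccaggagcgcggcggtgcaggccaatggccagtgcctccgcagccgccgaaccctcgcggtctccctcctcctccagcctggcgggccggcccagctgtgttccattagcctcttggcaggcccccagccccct
Col17a1: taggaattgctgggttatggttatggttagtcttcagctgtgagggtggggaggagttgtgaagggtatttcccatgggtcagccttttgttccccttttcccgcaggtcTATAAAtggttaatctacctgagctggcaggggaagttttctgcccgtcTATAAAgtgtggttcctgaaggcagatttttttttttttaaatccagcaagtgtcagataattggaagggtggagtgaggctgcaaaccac
Col16a1 held 1 match to GGGCGG, which started 159 bases before the start of transcription, and Col7a1 held 1 at 61 bases. Col17a1 held TATAAA at 140 and at 91 bases. No window of the 3 genes held either of the SOX motifs or the AP-1 motif. Bases G and C made up 75.6% of the Col16a1 window, 56.4% of that of Col7a1 and 46.0% of that of Col17a1, around a median of 52.4% over all promoters. Among the 38 collagen promoters in the table, which belong to 35 genes, the GC box stood in 22 and the TATA box in 5. The SOX letters AACAAT stood in 1 of them, and the letters ACAAAG in 4. Col5a2 had no entry.

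A collagen chain is hydroxylated and folded in the cell, exported, trimmed, crosslinked, bound by receptors and in the end cut by collagenases. All 70 genes listed for these steps were on the array, with 102 probes. Of these probes 4 were higher and 3 lower at an adjusted p under 0.05 (3.92% and 2.94%), beside the 2.99% and 1.41% of the whole array. They belonged to 6 genes, with 3 higher and 3 lower. Probes above background in no pup were 47.1% of the pathway probes and 56.7% of all. The list thus held a smaller share of dim probes than the array, and with a filter on dim probes 11.9% of the array passed.

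**Figure D4:**
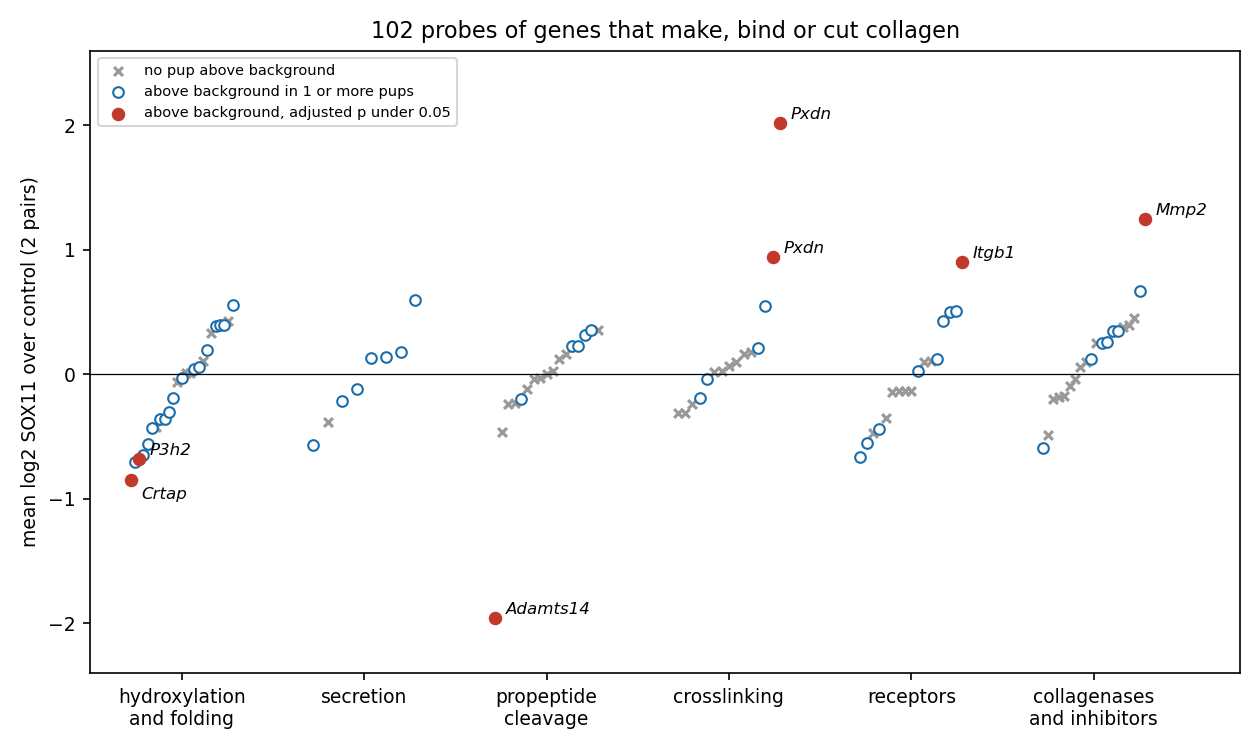
Mean log2 ratio of SOX11 over control (y axis, 2 pairs) for the 102 probes of genes that make, bind or cut collagen, by role (x axis, probes of a role in order of their value). Filled circles passed an adjusted p under 0.05, open circles were above background in 1 or more pups, and crosses in none. Adamts14 at -1.96 and Pxdn at 2.02 lie furthest from 0.

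Of the 18 genes for hydroxylation and folding, 2 fell and none rose. Crtap, a partner of the prolyl 3-hydroxylase complex, had a log2 brightness of 10.43 in the control and 9.57 in the SOX11 pup of pair 1 and of 10.39 and 9.53 in pair 2. The genotypes did not overlap, and the log2 ratios were -0.86 and -0.85 (adjusted p = 0.0141, limma). With centring on the median the mean was -0.25 (adjusted p = 0.247). P3h2, a prolyl 3-hydroxylase carried by the array as Leprel1, read 5.99 and 5.18 in pair 1 and 5.91 and 5.36 in pair 2. It was above background in the controls only, which makes it at least 1.39-fold lower (adjusted p = 0.0421, limma). None of the 6 secretion genes passed. Klhl12, an adaptor of the ubiquitin ligase that enlarges transport vesicles for collagen, read 0.43 and 0.77 (adjusted p = 0.0691, limma). Mia3, the receptor that loads collagen VII, read -0.65 and -0.49 at one probe (adjusted p = 0.0688, limma) and -0.23 and -0.19 at the other.

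Of the 11 genes that trim the ends of procollagen, Adamts14, a procollagen N-proteinase, fell. Its probe at chr10:60659860-60659919 read 11.41 and 9.08 in pair 1 and 10.39 and 8.80 in pair 2. Both SOX11 pups were dimmer than both controls. The log2 ratios of -2.33 and -1.59 gave a mean of -1.96 (95% interval -2.39 to -1.53, adjusted p = 0.000677, limma). A further Adamts14 probe was not above background in any pup. Bmp1, the main C-proteinase, was above background at its 3 probes, with mean log2 ratios of 0.36, 0.23 and 0.32, none of which passed.

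Of the 7 crosslinking genes, Pxdn rose. It encodes peroxidasin, which crosslinks type IV collagen. Its probe at chr12:30702457-30702516 read 6.62 and 9.36 in pair 1 and 7.70 and 9.0 in pair 2. The SOX11 pups lay above the controls, and the log2 ratios were 2.74 and 1.30 (mean 2.02, adjusted p = 0.0044, limma). A second probe read 1.36 and 0.52 (adjusted p = 0.0334, limma), which did not pass with median spot brightness (adjusted p = 0.0766, and from 0.00114 to 0.337 over all alternatives), and the third was not above background. As for Col4a1, the control of pair 1 was dimmer than that of pair 2, here by 1.08. Lox, Loxl1, Loxl3 and Loxl4, of the lysyl oxidases that crosslink fibrils, were not above background. The remaining one, Loxl2, had a probe above background in the SOX11 pups only, which read 0.83 and 0.27 (95% interval 0.16 to 0.95, adjusted p = 0.113, limma). A further probe, above background in 3 pups, read 0.44 and -0.01, and the last was not above background.

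Among 10 receptor genes Itgb1, the beta chain shared by the collagen-binding integrins, rose. Its log2 ratios were 0.97 and 0.83 at one probe (adjusted p = 0.0119, limma) and 0.51 and 0.51 at the other (adjusted p = 0.091, limma). No probe of the listed alpha chains Itga1, Itga2, Itga10 and Itga11 passed, and Itga2 was not above background in any pup. In a list of 18 collagenases, related proteases and their inhibitors, Mmp2 rose. It encodes a gelatinase that also cuts type IV collagen. Its log2 brightness was 7.65 and 8.89 in pair 1 and 7.84 and 9.10 in pair 2, so that the genotypes did not overlap. The log2 ratios of 1.25 and 1.26 gave a mean of 1.25 (95% interval 0.92 to 1.59, adjusted p = 0.00202, limma). Mmp14, the membrane protease that activates Mmp2, was named after its values were seen. It read 0.88 and 0.47 and lay just outside the threshold (adjusted p = 0.0532, limma).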

How the data were processed

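Epidermal sheets were peeled from dorsal skin with dispase, per the study's methods, and RNA of 2 littermate pairs was hybridised to 2 mouse arrays that lay on 1 slide. Per the file headers, the deposited intensity values are the spot and background brightness given by Agilent Feature Extraction 10.7.3.1 for each dye, without normalization, with probe positions on mm9. The deposited log10 ratios of the same files were not used. An alternative used the log2 values that the authors deposited as the series table. The methods mention a colour swap and a ComBat step, while the labels give the same dyes on both arrays.

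The ComBat step was not applied here. The other steps followed the methods, with limma 3.58.1 under R 4.3.3. The methods do not name the spot statistic, and the mean was used. Mean spot brightness was corrected for median local background by normexp (offset 16) and normalized by loess. Control spots and spots with an outlier flag (194 and 186) were left out, spots of a probe were averaged, and an intercept was fitted to the 2 log2 ratios of 55676 probes with eBayes and Benjamini-Hochberg adjustment. The prior had 8.34 degrees of freedom and an SD of 0.223. The fit is on differences within pairs. All adjusted p-values are over all probes. The scripts were tested on simulated data. Brightness per pup is the log2 channel value after loess and quantile scaling of the mean brightness between arrays. The number of arrays limits the precision. For the fold of a gene with a dim group, that group was set on each array to its own signal or to a floor, whichever was higher. The floor was the dimmest signal called well above background. The resulting fold takes no account of the spread between pairs and is no minimum.

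The collagen genes and the lists were chosen with earlier results of these data known. The genes named are Col16a1, Col17a1, a fixed set of collagens of the basement membrane and types I, III, V and VI, every listed gene past an adjusted p of 0.05, and the 2 largest changes above background in each structural group or in a role where none passed. Promoters come from RefSeq (GRCm38.p6). Alternatives were the offset, the spot statistic, the background correction, the centring, scaling between arrays, a filter on dim probes, the series table, the fold threshold and leaving out each array.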

Additional observations from a re-analysis of the deposited data

How the results depend on the processing

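Calls depended on the background correction and the centring. With the processed signals of the scanner software no probe of the array passed the adjusted threshold in limma, although 9764 probes, 13 of them collagens, had an unadjusted p under 0.05. The counts of collagen probes higher, lower and past log2 1.5, of collagen genes and of pathway genes were then all 0, and Col16a1 (-1.82 and -1.71 at its end probes, adjusted p = 0.244 for both) and Col17a1 (-1.11, adjusted p = 0.283) kept their size. Centring on the median, which raised the probes above background by 0.473 in pair 1 and 0.545 in pair 2, called 33.2% of the array, with 11 collagen probes higher, 12 lower, 1 past log2 1.5, 20 collagen genes and 34 pathway genes. Col17a1 was then -0.47 (adjusted p = 0.0615). In turn Col1a1, Col1a2, Col3a1, Col4a1, Col4a5, Col4a6 (both probes), Col6a3, 1 Col18a1 probe (0.45) and 1 dim Col6a2 probe (-0.53) passed. Without background correction 6 collagen probes were lower, among them Col5a1 (-0.64), Col6a1 (-0.43) and Col7a1 (-0.77), 1 was past log2 1.5, and 8 collagen and 15 pathway genes passed. An offset of 50 left 1 collagen probe past log2 1.5 and called 12 pathway genes. With a filter on dim probes 1 collagen probe was higher, since Col6a6 was not tested. A linear threshold of 1.5-fold called 5 collagen probes. The end probes of Col16a1 passed in 7 of 8 alternatives, as did that of Col5a2, and Col17a1 in 6. The alternatives share the same 2 arrays. The series table and median spot brightness had a correlation of 1 on each array, so they are not separate checks. Some signs turned. The dim Col16a1 probe was -0.09 with processed signals and -0.16 with median centring. Median centring gave Col18a1 0.31 and 0.45, Col6a6 -0.18 at its second probe, Pxdn -0.25 at its dim probe and Mia3 0.41. Processed signals gave Col4a2 -0.02, Col6a6 -0.18 and Pxdn -0.11. Median spot brightness and the series table gave 0.03 for 1 Col6a2 probe and -0.04 for the dim Pxdn probe, which was -0.03 without background correction. The cause was not tested. Leaving out 1 pair gave a value with no test: Col16a1 ranged from -1.94 to -1.69 and from -1.56 to -1.39 at its end probes, and Col17a1 from -1.32 to -0.88. Counts could not be made from 1 array. Each array holds the ratio within a littermate pair, so the fit was itself paired, and no separate fit with or without a replicate block was made.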
